A study of Mus musculus with 41 samples.

Results

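Endometriosis-like lesions were compared between 2 kinds of host while the genotype of the uterine tissue was held constant. Of the 41 lesion libraries of the series, 8 enter this comparison. In 4 of them, uterine fragments of Nmur1iCre-eGFP mice had been placed in Nmur1iCre-eGFP Id2fl/fl hosts, which the series treats as deficient in group 2 innate lymphoid cells (ILC2s). The other 4 were fragments of the same genotype that were not exchanged between genotypes, and their hosts, which the labels do not give, were taken to be Nmur1iCre-eGFP as well. All 8 lesions came from punches of 4 mm fixed to the peritoneal wall of mice aged 12 to 16 weeks, and all hosts received 3 injections of 1 µg IL-33 over 6 days, from day 7. Both groups therefore carry the Cre driver in the fragment and both saw IL-33. The Cre is driven by Nmur1, so the conditional Id2 alleles of the deficient hosts are deleted in cells that use this gene, and fragment cells keep Id2. The members were chosen by their titles. Below, "own hosts" and "deficient hosts" name the groups, and replicate numbers are those of the titles, and nothing in them ties a replicate to an animal of its own; the error terms below describe variation among lesions that may be partly technical. Nmur1 passed in 2 of 8 fits that each left out 1 library (adjusted p up to 0.0913).

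ILC2s are lymphocytes without antigen receptors that reside in tissues. IL-33, released by damaged cells, binds its receptor ST2 (Il1rl1) on them and they answer with IL-5 and IL-13. IL-5 sustains eosinophils, and IL-13 acts through STAT6 on macrophages, epithelium and fibroblasts to induce chitinase-like proteins, resistin-like molecules and chemokines that draw eosinophils. In whole lesions, fewer cells of a type and less RNA per cell cannot be told apart.

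Library totals were 28.9 to 48.1 mega-counts in deficient hosts and 31.8 to 44.1 in own hosts. Of the 8 libraries, 3 stood apart in the tissue they held. Replicate 3 of own hosts had 6.08% of its counts in 14 liver genes, against at most 0.0638% in the other 7 libraries, and 0.00592% in 14 skeletal muscle genes, against at least 0.834%. Replicate 3 of deficient hosts had 0.0600% in 12 T cell genes, against 0.00137% to 0.00346% in the other 7. Replicate 1 of deficient hosts was low in genes of uterine tissue, with 1.25 CPM (counts scaled to a fixed library total) of the epithelial Epcam (12.1 to 100 in the other 7), 0.0766 CPM of the uterine stromal Hoxa11 (10.4 to 43.9) and the highest skeletal muscle share (5.65%). Epcam, Krt8, Hoxa10, Hoxa11, Pgr and Acta2 were present in the other 7 libraries. The transferred lesions also have a run of library names of their own, so that a run and the host cannot be told apart.

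**Figure D1:**
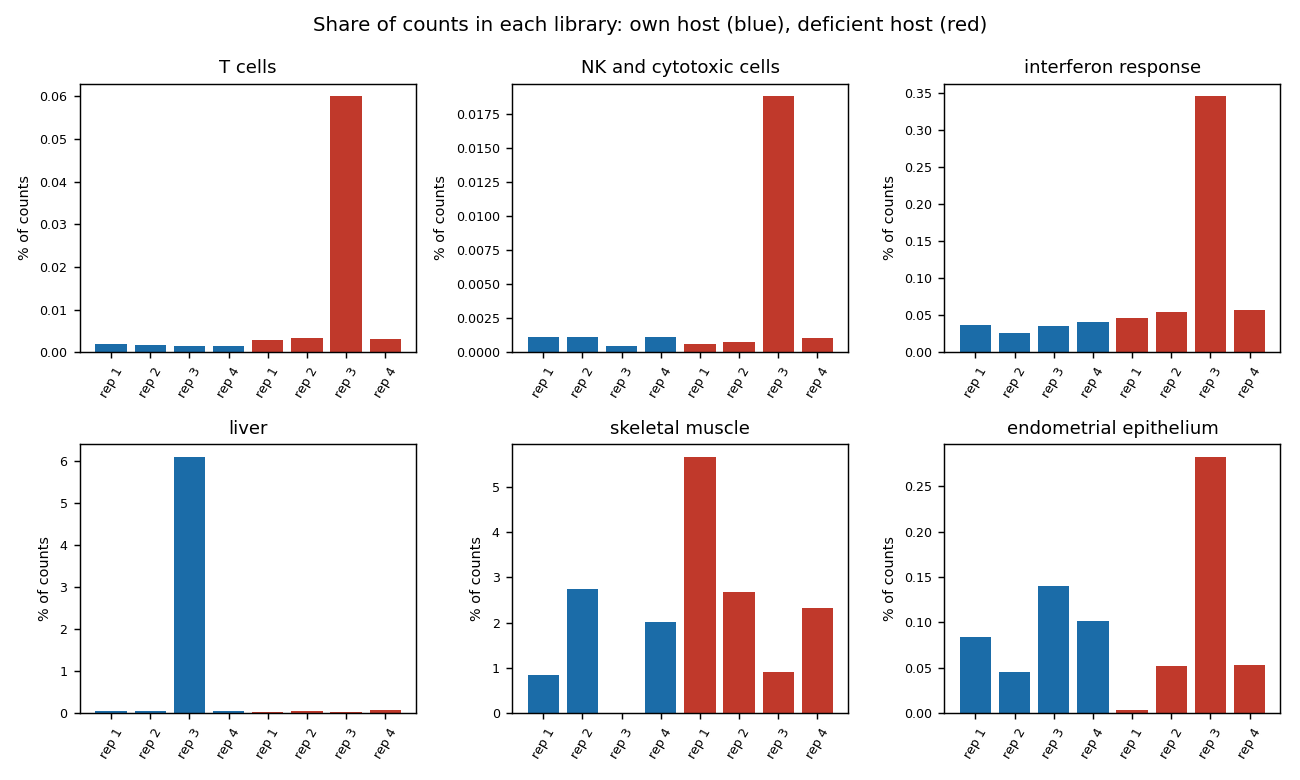
Share of all counts taken by 6 gene lists (vertical axes, percent) in each of the 8 libraries (bars), own hosts in blue and deficient hosts in red. The T cell, NK and interferon panels are led by replicate 3 of deficient hosts, the liver panel by replicate 3 of own hosts (6.08%), and epithelial genes were lowest in replicate 1 of deficient hosts (0.00317%).

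Across 21249 genes, 861 (4.05%) differed between hosts at an adjusted p under 0.05 (edgeR quasi-likelihood test, Benjamini-Hochberg adjustment over all genes). Of these, 503 (2.37%) were higher and 358 (1.68%) lower in deficient hosts, and the median log2 fold change over all genes was −0.01. The 4 libraries of one group lay wholly above or below the 4 of the other for 1994 genes (9.38%), with deficient hosts above for 922 (4.34%) and below for 1072 (5.04%). A gene is said to rise or fall below only if it passed this test, and log2 fold changes are given as deficient minus own hosts ± standard error. The count was 390 without replicate 3 of deficient hosts, 438 without replicate 3 of own hosts and 270 without both, while it was 721 without replicate 1 of deficient hosts. It was also 353 without replicate 1 and 279 without replicate 2 of own hosts, fits in which 31 and 38 of 96 called genes chosen for closer description lost their calls. With only these 8 libraries in the model, which then estimate the spread alone, 22 genes passed. Il13 (adjusted p = 0.0136), Ear2 (0.00532), Rnase2a (0.00532), Col6a5 (0.00532) and Retnla (0.0461), described below, passed in that fit. Il5 (0.0632), Il1rl1 (0.172), Il17rb (0.0537), Chil3 (0.101), Ccl17 (0.125), Ccl24 (0.146), Ccl11 (0.131) and Siglecf (0.221) did not. Cx3cr1 (0.115) and Flt3 (0.146) did not pass there either. For genes named below that lost a call when any 1 of the 8 libraries was left out in turn, the number of fits that kept it and the highest adjusted p follow their values. Msx1 is an exception, with only some of these fits given.

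**Figure D2:**
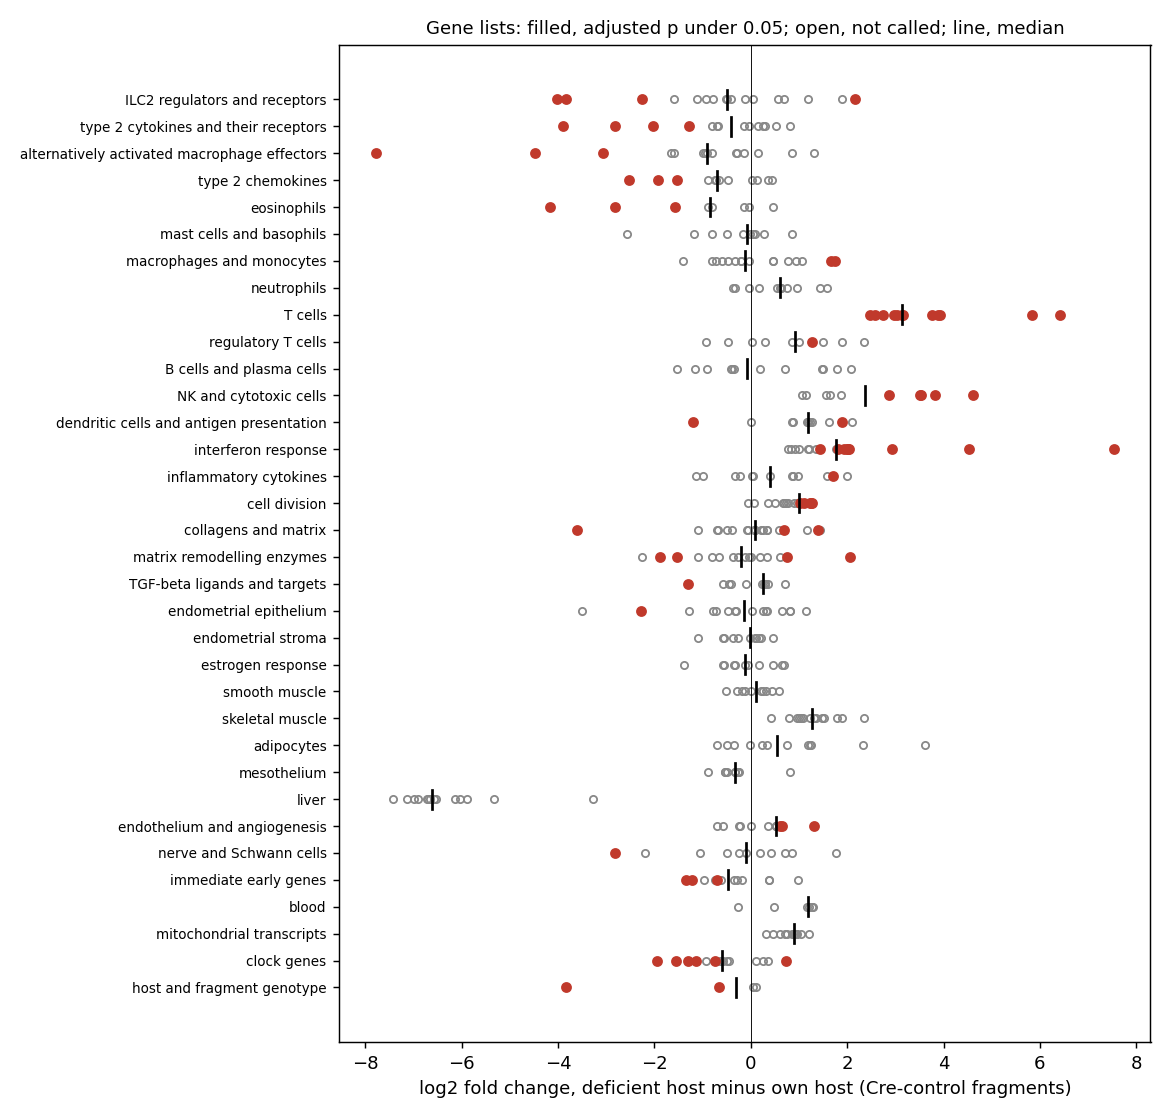
Log2 fold change (horizontal axis, deficient minus own hosts) of every measured member of 34 gene lists (rows). Filled points passed the test, open points did not, and vertical lines are list medians, which run from −6.62 (liver) to 3.14 (T cells).

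Transcripts of both signature ILC2 cytokines were low in deficient hosts. Il13 (chr11:53631324-53634702, GRCm38) stood at 0.128, 0.112, 0.213 and 0.211 CPM in replicates 1 to 4 of deficient hosts and at 2.21, 3.56, 2.71 and 1.55 in own hosts. Every library of deficient hosts lay below every library of own hosts. The fall was 15.0-fold (log2 −3.91 ± 0.56, adjusted p = 0.000162). Il5 (chr11:53720794-53725106) was 0.204, 0.0897, 0.122 and 0.264 CPM in deficient hosts and 1.33, 1.78, 0.945 and 0.788 in own hosts, a 7.03-fold fall (−2.81 ± 0.49, adjusted p = 0.00179). These are low levels for whole tissue, and both genes again separated the groups without overlap.

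Of the 14 measured type 2 cytokine and receptor genes, 4 fell and none rose (median −0.41). Besides both cytokines these were Il13ra2, a decoy receptor for IL-13 (−2.03 ± 0.50, adjusted p = 0.0184), and Cish, a feedback inhibitor of cytokine signalling (−1.27 ± 0.31, adjusted p = 0.0182). Il33 itself did not pass (0.15 ± 0.43, adjusted p = 0.873). The call on Il13ra2 was lost without replicate 3 of deficient hosts (adjusted p = 0.0743), and that on Cish without replicate 1 of deficient hosts (0.0533) or replicate 3 of own hosts (0.0538). Il13ra2 passed in 6 of 8 fits that each left out 1 library (adjusted p up to 0.0743) and Cish in 3 (up to 0.0556).

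Among 17 ILC2 regulators and receptors, 3 fell and 1 rose (median −0.49). Il1rl1 was 9.75, 10.6, 17 and 9.71 CPM in deficient hosts against 69.7, 109, 19.9 and 27.6 in own hosts, a 4.82-fold fall (−2.27 ± 0.44, adjusted p = 0.00484). The groups did not overlap, and the narrowest gap was between replicates 3 of both groups. Il17rb, a chain of the IL-25 receptor, fell 16.2-fold, from 7.05 to 17.5 CPM in own hosts to 0.434 to 1.80 (−4.01 ± 0.89, adjusted p = 0.01). Nmur1, the neuromedin U receptor gene that names the Cre driver, was 0, 0.0673, 0 and 0.185 CPM in deficient hosts and 0.622 to 1.67 in own hosts (−3.84 ± 1.02, adjusted p = 0.0288, with 0.0712 without replicate 1 and 0.0913 without replicate 3 of deficient hosts).

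Id2 and Gata3, transcription factors that ILC2s need, did not pass in whole lesions. Id2 (chr12:25093799-25097140) was 33.6 to 56.3 CPM in deficient hosts and 30.2 to 61.8 in own hosts (0.04 ± 0.26, adjusted p = 0.948), and many cells use it, so its level does not check the deletion. Gata3 stood at 2.50, 2.56, 14.4 and 2.24 CPM in deficient hosts and 6.22 to 8.77 in own hosts (−0.52 ± 0.38, adjusted p = 0.442). The value in replicate 3 of deficient hosts, the library high in T cell genes, was above all own-host libraries and the other 3 were below them. Without that library Gata3 was called lower (−1.66, adjusted p = 0.000802). Icos, a costimulatory receptor shared by ILC2s and T cells, rose (2.16 ± 0.64, adjusted p = 0.0493), and lost the call without the same library (0.27, adjusted p = 0.783) or without replicate 3 of own hosts (adjusted p = 0.105). Icos passed in 3 of 8 fits that each left out 1 library (adjusted p up to 0.783).

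**Figure D3:**
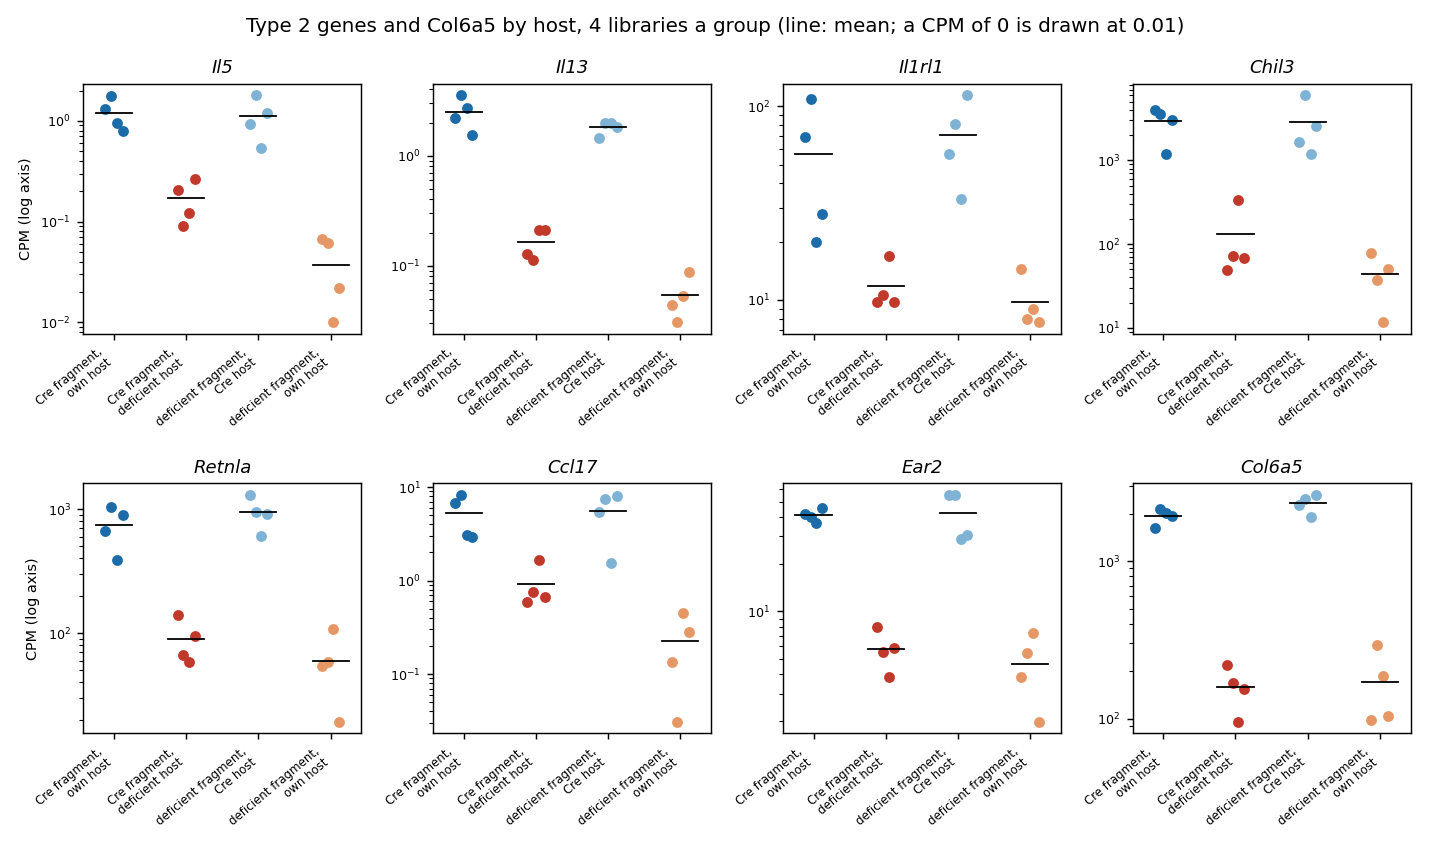
Levels (CPM, log axis) of 8 genes in 4 groups of 4 libraries (points; line, mean). Cre-control fragments are dark blue in own hosts and red in deficient hosts, and deficient fragments are light blue in Cre-control hosts and orange in own hosts. Each gene is lower in both groups grown in deficient hosts, with Col6a5 at 159 and 170 CPM on average against 1927 and 2330.

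Genes that macrophages switch on under IL-4 and IL-13 fell steeply in part. Of 15 such genes, 3 fell, none rose, and the median was −0.90 (1 fell without replicate 3 of deficient hosts). Chil3 (chr3:106147554-106167564), a chitinase-like protein, was 49.0, 72.8, 334 and 68.0 CPM in deficient hosts and 3946, 3549, 1198 and 3020 in own hosts. It fell 22.4-fold (−4.48 ± 1.03, adjusted p = 0.0124), with no overlap. Its neighbour Chil4 fell as well (−7.78 ± 1.95, adjusted p = 0.0216), from 86.3 to 626 CPM to 0.179 to 4.27, although reads can be shared between the pair. That call was lost without replicate 1 or 3 of deficient hosts (adjusted p = 0.0541 and 0.0733). Chil4 passed in 5 of 8 fits that each left out 1 library (adjusted p up to 0.0733).

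Retnla (chr16:48842551-48844461), a resistin-like molecule, was 139, 66.7, 58.4 and 95.1 CPM in deficient hosts and 667, 1046, 389 and 893 in own hosts. It fell 8.34-fold (−3.06 ± 0.82, adjusted p = 0.0312, and 0.0953 without replicate 3 of deficient hosts). Other members of the list did not pass: Arg1, which splits arginine, was −1.59 ± 0.67 (adjusted p = 0.166), the lectin Mgl2 −1.65 ± 0.56 (0.0857), the mannose receptor Mrc1 −0.94 ± 0.33 (0.102) and fibronectin (Fn1) −0.99 ± 0.31 (0.0608). These 4 were picked after their values were seen. Retnla passed in 2 of 8 fits that each left out 1 library (adjusted p up to 0.0953).

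Of 12 chemokine and receptor genes of type 2 responses, 3 fell and none rose (median −0.70). Ccl17, a ligand of Ccr4 on type 2 T cells, was 0.587, 0.763, 1.64 and 0.659 CPM in deficient hosts and 6.75, 8.28, 3.06 and 2.93 in own hosts (−2.53 ± 0.59, adjusted p = 0.0146). The eosinophil attractants Ccl24 (eotaxin-2) and Ccl11 (eotaxin) fell 3.80-fold (−1.92 ± 0.48, adjusted p = 0.0203) and 2.89-fold (−1.53 ± 0.35, adjusted p = 0.0115). All 3 separated the groups without overlap. Ccl24 lost its call without replicate 1 of deficient hosts (adjusted p = 0.0519) and Ccl11 without replicate 3 of that group (0.0554). Ccl17 passed in 7 of 8 fits that each left out 1 library (adjusted p up to 0.0583), Ccl24 in 4 (up to 0.0734) and Ccl11 in 7 (up to 0.0554).

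Of 8 measured eosinophil genes, 3 fell and none rose (median −0.84). The share of counts of the whole list was 0.0160%, 0.0155%, 0.0391% and 0.0147% in replicates 1 to 4 of deficient hosts and 0.0226% to 0.0304% in own hosts, so that replicate 3 of deficient hosts was above every own-host library and the other 3 were below them. The granule ribonuclease Ear2 (chr14:44102654-44103534) was 7.94, 5.52, 3.80 and 5.86 CPM in deficient hosts and 41.4, 39.9, 36.7 and 45.7 in own hosts, with narrow spread in both groups. It fell 7.07-fold (−2.82 ± 0.39, adjusted p = 9.67e-05). Its relative Rnase2a fell 18.1-fold (−4.18 ± 0.81, adjusted p = 0.00484) and Siglecf, an inhibitory surface receptor of eosinophils, 3.00-fold (−1.58 ± 0.35, adjusted p = 0.0108). Reads may be shared between Ear2 and related ribonucleases. No gene of the 10 measured for mast cells and basophils passed (median −0.09).

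The promoters of the genes that fell were read for the inverted repeat that STAT proteins bind, TTC and GAA with 4 bases of any kind between them, which reads alike on both strands. It stood in 2 of the 14 called genes of the 5 type 2 lists that had a promoter in the table, Retnla and Ccl17, and in 6.95% of all 32851 promoters. Here and below, a gene counts if any of its promoters holds the string. The share is over single promoters, so the figures are not of the same kind. Each window runs from 250 bases before to 50 after the transcription start (RefSeq, GRCm38.p6), that of Retnla at chr16:48842359-48842658 and that of Ccl17 at chr8:94810203-94810502, both on the plus strand. The pair is shown because both genes carry the string, marked in capitals, at −145 (Retnla) and −154 (Ccl17) from the start. A match is a string of letters, not a bound site.
Retnla: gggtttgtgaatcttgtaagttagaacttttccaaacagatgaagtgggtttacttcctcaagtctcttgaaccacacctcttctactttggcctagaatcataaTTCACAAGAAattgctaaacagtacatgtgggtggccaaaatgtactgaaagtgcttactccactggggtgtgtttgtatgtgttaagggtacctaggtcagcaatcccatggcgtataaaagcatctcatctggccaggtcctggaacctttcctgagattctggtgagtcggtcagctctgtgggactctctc
Ccl17: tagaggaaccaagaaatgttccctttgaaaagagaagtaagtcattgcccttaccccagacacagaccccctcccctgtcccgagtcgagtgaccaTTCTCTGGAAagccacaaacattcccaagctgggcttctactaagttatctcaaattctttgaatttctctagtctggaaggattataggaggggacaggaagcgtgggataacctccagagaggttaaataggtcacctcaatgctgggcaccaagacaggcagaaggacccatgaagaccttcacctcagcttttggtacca

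One collagen moved with the type 2 genes. Col6a5 (chr9:105856078-105960643), a chain that can take part in type VI collagen, was 218, 168, 95.1 and 155 CPM in deficient hosts and 1618, 2137, 2012 and 1940 in own hosts, a 12.1-fold fall without overlap (−3.60 ± 0.54, adjusted p = 0.000248). Of the 20 collagen and matrix genes it was the one that fell, while Col12a1 (1.40 ± 0.36, adjusted p = 0.0237) and Col4a1 (0.69 ± 0.20, adjusted p = 0.0497) rose, and the median was 0.09. Col4a1 lost its call without replicate 1 of deficient hosts (adjusted p = 0.0539) or replicate 3 of own hosts (0.0966), and the groups overlapped for Col12a1. Col12a1 passed in 5 of 8 fits that each left out 1 library (adjusted p up to 0.0788) and Col4a1 in 1 (up to 0.132).

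Among 16 enzymes that act on matrix, 2 fell and 2 rose (median −0.20). The crosslinker Loxl3 (−1.54 ± 0.34, adjusted p = 0.00964) and the macrophage elastase Mmp12 (−1.88 ± 0.43, adjusted p = 0.0124) fell. Mmp12 was 542 to 2116 CPM in deficient hosts and 1827 to 5615 in own hosts, which overlap, and its call was lost without replicate 3 of deficient hosts (adjusted p = 0.0562). The proteases Mmp3 (2.06 ± 0.60, adjusted p = 0.0472) and Adamts4 (0.75 ± 0.21, adjusted p = 0.0427) rose, and Mmp3 was 36.2 to 48.5 CPM against 7.96 to 13.8. Mmp3 did not pass without replicate 1 (0.0832) or 3 (0.0782) of deficient hosts or replicate 3 of own hosts (0.118), nor Adamts4 without either replicate 3 (0.0658 and 0.0507). Inhba, a chain of activin, fell (−1.31 ± 0.27, adjusted p = 0.00745). Mmp12 passed in 7 of 8 fits that each left out 1 library (adjusted p up to 0.0562), Mmp3 in 0 (up to 0.118) and Adamts4 in 1 (up to 0.12).

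Genes of T cells, cytotoxic cells and interferon were higher in deficient hosts, with the highest values in 1 library. All 12 T cell genes rose (median 3.14), as did 5 of 10 NK and cytotoxic genes (2.38) and 9 of 18 interferon-induced genes (1.77). Without replicate 3 of deficient hosts, 2 T cell genes, no NK gene and 1 interferon gene passed, and the medians were 1.12, 0.29 and 0.92. Cd8a, a chain of the coreceptor of cytotoxic T cells, was 1.63, 1.59, 68.8 and 1.00 CPM in deficient hosts and 0.383, 0.124, 0.124 and 0.225 in own hosts. Replicate 3 was far above the other 3, which themselves were above all own-host libraries. Cd8a kept its call without that library (2.73, adjusted p = 0.0357, against 6.41 ± 1.13, adjusted p = 0.00182 with it), and Cd4 did so too (2.06, adjusted p = 0.0451, against 2.98 ± 0.61, adjusted p = 0.00743). Without replicates 3 of both groups, no T cell gene passed, nor did any with only the 8 libraries in the model. DESeq2 called 6 of the 12 and gave no adjusted p for Cd8a.

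Cxcl9 and Cxcl10, chemokines that interferons induce and that draw T cells, rose the same way. Cxcl9 was 2.83, 2.40, 347 and 1.56 CPM in deficient hosts and 0.147 to 1.12 in own hosts (7.53 ± 1.64, adjusted p = 0.00964, and 2.26, adjusted p = 0.252, without replicate 3). Cxcl10 was 6.43, 4.46, 83.7 and 3.83 CPM against 0.568 to 1.54 (4.54 ± 0.99, adjusted p = 0.00964, and 2.22, adjusted p = 0.129, without replicate 3). Ifit2, an antiviral protein, was the interferon gene that kept its call (21.3 to 87.8 CPM against 7.41 to 14.9, 2.00 ± 0.40, adjusted p = 0.00643, and 1.28, adjusted p = 0.0451, without replicate 3). That library also held 0.346% of its counts in the interferon list, against 0.0460% to 0.0566% in the other 3 and 0.0258% to 0.0404% in own hosts. Its part in the rises of genes without such a value was not tested. Cxcl9 passed in 7 of 8 fits that each left out 1 library (adjusted p up to 0.252) and Cxcl10 in 7 (up to 0.129).

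The interferon-stimulated response element was searched as GAAA, 2 bases of any kind and GAAA, on both strands. It stood in 4 of the 7 risen interferon genes with a promoter in the table (Ifit3, Gbp2, Gbp3 and Cxcl10) and in 3.44% of all promoters. The window of Cxcl10 (RefSeq, GRCm38.p6, chr5:92348840-92349139, minus strand, printed 5′ to 3′ along the gene) is shown for its steep rise, with the match in capitals at −213 from the start.
Cxcl10: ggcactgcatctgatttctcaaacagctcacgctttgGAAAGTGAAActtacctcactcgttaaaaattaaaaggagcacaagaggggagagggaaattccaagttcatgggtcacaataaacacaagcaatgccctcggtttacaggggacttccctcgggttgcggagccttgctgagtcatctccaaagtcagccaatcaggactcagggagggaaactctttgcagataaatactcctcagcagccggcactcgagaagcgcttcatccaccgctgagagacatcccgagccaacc

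Some myeloid genes rose as well. Of 16 macrophage and monocyte genes, 2 rose and none fell (median −0.12). Cx3cr1, the fractalkine receptor, was 27.0, 20.1, 45.9 and 24.0 CPM in deficient hosts and 5.46 to 11.9 in own hosts (1.74 ± 0.32, adjusted p = 0.00266, and 0.0130 without replicate 3 of deficient hosts). Fcgr1, the high-affinity IgG receptor, rose too (1.67 ± 0.37, adjusted p = 0.0109), and did not pass without that library (0.0611). Of 12 genes of dendritic cells and antigen presentation, 1 rose and 1 fell (median 1.18, and 0.02 without replicate 3 of deficient hosts). Flt3, a growth factor receptor of dendritic cells, was 5.88 to 16.7 CPM against 1.83 to 2.91 (1.90 ± 0.32, adjusted p = 0.00111, and 0.00679 without replicate 3), whereas Itgax, which encodes CD11c, fell (−1.20 ± 0.34, adjusted p = 0.0407, and 0.126 without it). Of 12 neutrophil genes and 12 B and plasma cell genes none passed (medians 0.61 and −0.08). Fcgr1 passed in 7 of 8 fits that each left out 1 library (adjusted p up to 0.0611) and Itgax in 3 (up to 0.126).

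Of 20 cell division genes, 5 rose and none fell (median 0.99), with Kif11, a mitotic motor, at 23.4 to 59.4 CPM against 12.1 to 18.6 (1.25 ± 0.31, adjusted p = 0.0198) and the proliferation marker Mki67 at 130 to 302 against 70.8 to 102 (1.10 ± 0.30, adjusted p = 0.0364). Replicate 3 of deficient hosts was highest for both, but the other 3 were also above own hosts. Without it no member passed and the median was 0.71, and without replicate 3 of own hosts 1 passed. The string CCAAT, bound by NF-Y, stood on either strand in the promoters of all 5 and in 37.4% of all promoters. Rrm2, which is among these 5, lies within 10 Mb of Id2, a region described separately below. Of 13 endothelial genes 3 rose, Angpt1 (1.31 ± 0.35), Kdr (0.65 ± 0.18) and Cdh5 (0.60 ± 0.18), with adjusted p = 0.0283, 0.0374 and 0.0490. None of the 3 passed without replicate 1 of deficient hosts, the library low in uterine genes (adjusted p = 0.111, 0.0796 and 0.140), and Angpt1 and Cdh5 also missed the threshold without replicate 3 of own hosts (0.102 and 0.0771). Kif11 passed in 5 of 8 fits that each left out 1 library (adjusted p up to 0.12), Mki67 in 3 (up to 0.173), Angpt1 in 4 (up to 0.111), Kdr in 2 (up to 0.115) and Cdh5 in 1 (up to 0.14).

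Clock genes formed a further group. The circadian clock is a feedback loop in which BMAL1 (Arntl) and CLOCK drive Per and Cry genes and the output genes Dbp, Tef and Hlf. Of 14 clock genes, 5 fell and 1 rose (median −0.61). Per3 (chr4:151003652-151044665) was 32.5, 25.3, 16.8 and 27.3 CPM in deficient hosts and 77.6, 86.9, 68.9 and 63.7 in own hosts, a 2.91-fold fall (−1.54 ± 0.19, adjusted p = 1.70e-05). Dbp was 14.6, 11.1, 8.13 and 13.4 CPM against 42.1, 54.3, 46.8 and 37.6 (−1.94 ± 0.28, adjusted p = 0.000198). The groups were far from overlapping in both.

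Per2 (−1.30 ± 0.25, adjusted p = 0.00466), Ciart (−1.14 ± 0.24, adjusted p = 0.00835) and Nr1d2 (−0.75 ± 0.21, adjusted p = 0.0385, and 0.148 without replicate 3 of deficient hosts) fell as well. Arntl was 36.8 to 52.2 CPM in deficient hosts and 24.3 to 30.6 in own hosts (0.72 ± 0.15, adjusted p = 0.00835). Outside the list, Hlf fell (−2.33 ± 0.51, adjusted p = 0.00964), and it was picked after its values were seen. Per3, Dbp, Ciart and Arntl kept their calls without each of the libraries that stand apart. The labels give no hour of collection, so it cannot be told apart from the host. Nr1d2 passed in 2 of 8 fits that each left out 1 library (adjusted p up to 0.148).

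Per3 has the D-box string TTATGTAA, which DBP, TEF and HLF recognise, in its promoter window. It is shown for its low p, and both matches, at −205 and −158 from the start, are in capitals. The string was chosen after the values were seen and searched on both strands. Of the 5 called clock genes with a promoter, Per3 alone held it, as did 0.938% of all promoters. The E-box CACGTG, to which BMAL1 and CLOCK bind, was also chosen after the values were seen, and stood in 1 of the 5 (Ciart) and in 7.15% of all promoters. The window of Per3 is RefSeq, GRCm38.p6, chr4:151044616-151044915, minus strand.
Per3: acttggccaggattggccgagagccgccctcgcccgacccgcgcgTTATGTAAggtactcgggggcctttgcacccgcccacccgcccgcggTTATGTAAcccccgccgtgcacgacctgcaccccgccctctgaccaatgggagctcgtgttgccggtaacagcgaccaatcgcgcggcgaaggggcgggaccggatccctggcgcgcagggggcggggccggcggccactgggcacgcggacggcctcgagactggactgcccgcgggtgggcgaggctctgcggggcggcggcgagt

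Asns, asparagine synthetase, was 9.19, 10.7, 13.5 and 10.8 CPM in deficient hosts and 55.5, 63.6, 29.8 and 28.2 in own hosts (−2.0 ± 0.32, adjusted p = 0.000567). Aldh1l2, a mitochondrial folate enzyme, fell 4.28-fold (−2.10 ± 0.33, adjusted p = 0.000567). Both came from the rule on genes called in both host comparisons. Trib3, a stress-induced pseudokinase (−2.38 ± 0.40, adjusted p = 0.00123), the arginine carriers Slc7a3 (−2.01 ± 0.43, adjusted p = 0.00835) and Slc7a2 (−1.89 ± 0.42, adjusted p = 0.00997), and the tRNA ligases Sars (−0.61 ± 0.13, adjusted p = 0.00743) and Cars (−0.58 ± 0.13, adjusted p = 0.0113) also fell. These 5 were picked after their values were seen for their part in amino acid supply or stress, without counting other such genes, and are no measure of a pathway. Of 12 immediate early genes, which are induced within minutes, Atf3 (−1.35 ± 0.33), Egr2 (−1.23 ± 0.32) and Jun (−0.69 ± 0.18) fell and none rose (median −0.48), and none of these 3 passed without replicate 3 of deficient hosts. Cars passed in 7 of 8 fits that each left out 1 library (adjusted p up to 0.0586), Atf3 in 4 (up to 0.0603), Egr2 in 4 (up to 0.0888) and Jun in 5 (up to 0.113).

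The same host difference could be read in fragments of the other genotype. Nmur1iCre-eGFP Id2fl/fl lesions in their own hosts were set against such fragments in Nmur1iCre-eGFP hosts (4 and 4 libraries, none of them shared with the first comparison). All 8 had the punch size, age range and IL-33 injections of the first comparison. The own-host group was that given IL-33 without added PBS or ILC2s, with hosts again taken to be of the fragment's genotype. Here the transferred lesions are those in competent hosts, whereas in the first comparison they are those in deficient hosts. Within each comparison, transfer and run of library names cannot be told apart from the host. In this comparison 964 genes (4.54%) differed, 393 (1.85%) higher and 571 (2.69%) lower in deficient hosts. The groups did not overlap for 2806 genes (13.2%), with deficient hosts above for 1175 (5.53%) and below for 1631 (7.68%). Of the 861 genes called for Cre-control fragments, 198 were also called there, and 195 went in the same direction, which is 22.6% of the first list and 20.2% of the second. Of these, 111 were lower and 84 higher in deficient hosts. Among the 358 genes that fell, 333 (93.0%) were also lower in the other fragment genotype, passing or not, and among the 503 that rose 333 (66.2%) were higher. The share of all genes with the same sign is not given here, so these percentages have no base rate beside them. Across all 21249 genes, which are not independent, the fold changes of the comparisons had a Pearson correlation of −0.56, and of 0.26 over 21106 genes without the libraries high in liver transcripts. Apol7c, Ccl5 and Ffar4 were called in opposite directions. Apol7c passed in 3 of 8 fits that each left out 1 library (adjusted p up to 0.383) and Ccl5 in 6 (up to 0.395).

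**Figure D4:**
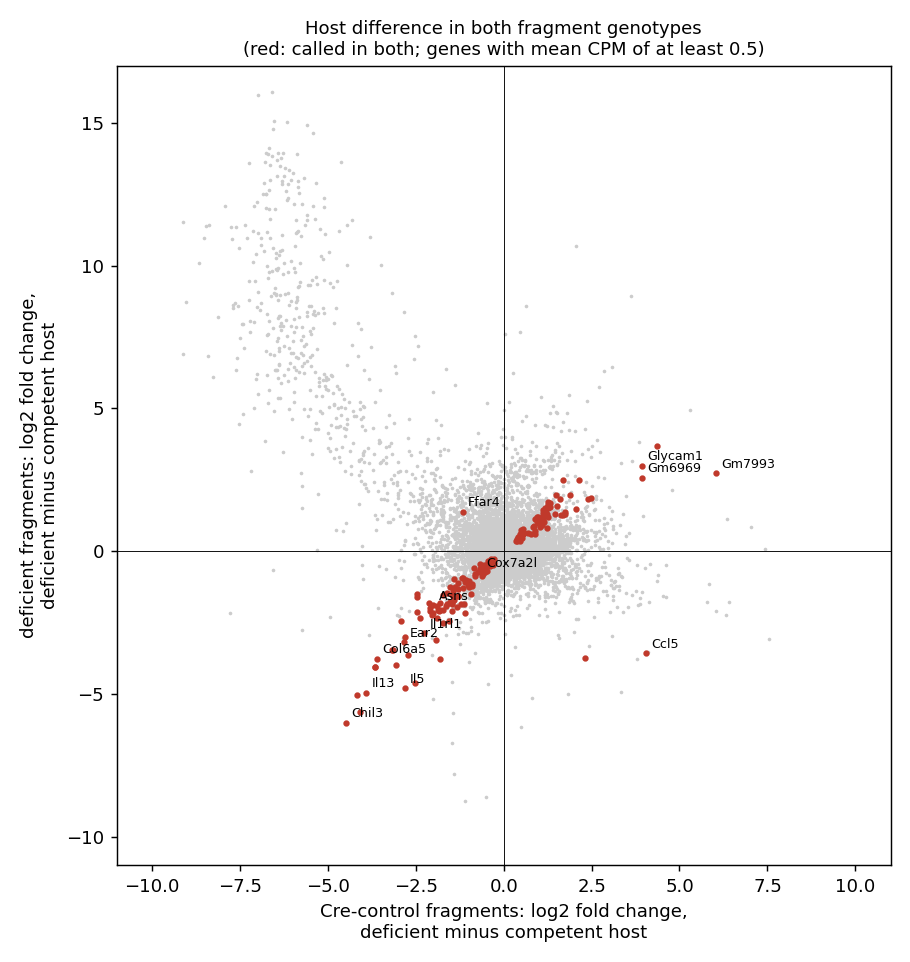
Log2 fold change, deficient minus competent host, for Cre-control fragments (horizontal) and deficient fragments (vertical) of 18936 genes with a mean of at least 0.5 CPM over the 4 groups. Red points are the 188 of these genes called in both; type 2 genes lie at the lower left, and the grey tail at the upper left has values of opposite sign in the comparisons.

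The values of type 2 genes in the other fragment genotype were nearer for some than for others. Il13 was −3.91 ± 0.56 for Cre-control and −4.96 ± 0.61 for deficient fragments, Ear2 −2.82 ± 0.39 and −3.20 ± 0.39, and Col6a5 −3.60 ± 0.54 and −3.77 ± 0.54. Il5 was −2.81 ± 0.49 and −4.81 ± 0.58, with 0.170 CPM on average in Cre-control fragments of deficient hosts and 0.0374 in deficient fragments. None of these 4 differed by the test of the difference between fragment genotypes (adjusted p = 0.59, 0.79, 0.94 and 0.18), which does not show that they are equal. Il17rb (−4.01 ± 0.89 and −0.50 ± 0.78) and Siglecf (−1.58 ± 0.35 and −0.14 ± 0.35) were called in Cre-control fragments and not in deficient ones, and the difference itself did not pass (adjusted p = 0.11 and 0.13). Chil4 was −7.78 and −2.18, and Ccl17 −2.53 and −4.61. Of the macrophage effectors 3 fell in Cre-control and 7 in deficient fragments, and of the chemokines and receptors 3 and 6, with medians of −0.90 and −1.14 and of −0.70 and −1.42.

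Genes higher in both included Glycam1, a mucin-like ligand of L-selectin (3.93 ± 0.58 and 2.99 ± 0.57), and Sfrp4, a secreted Wnt inhibitor (2.40 ± 0.43 and 1.81 ± 0.42), both picked after their values were seen. Cell division genes were also higher in the other fragment genotype, where 14 of 20 passed (median 1.28). None of the 14 liver genes passed in either comparison. Their medians were −6.62 and 12.94, with 1 library of each comparison high in liver transcripts (6.08% and 2.85% of counts), and the first was 6.25 without replicate 3 of own hosts.

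Several of the genes highest in deficient hosts in both comparisons were pseudogenes with a close coding relative. Gm6969 (chr12:24638669-24639010, GRCm38), a processed pseudogene 0.455 Mb from Id2, is 97.7% identical over 342 bases to Cox7a2l on chromosome 17, which encodes a factor of respiratory supercomplexes. Gm6969 was 23.3, 15.1, 15.6 and 11.1 CPM in Cre-control fragments of deficient hosts and 0.737, 0.667, 1.74 and 1.10 in own hosts (3.93 ± 0.35, adjusted p = 2.08e-08). Cox7a2l was 46.4, 46.7, 54.2 and 48.6 CPM against 74.9, 77.6, 71.5 and 83.9 (−0.65 ± 0.10, adjusted p = 0.000567). The pseudogene was high in every library of deficient hosts and the coding gene low in every one. Gm6969 was highest in replicate 1 of deficient hosts, the library low in uterine genes. Reads can be shared between such pairs, so their values are uncertain.

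Deficient lesions in their own hosts had 19.9 ± 2.29 CPM of Gm6969 and 41 ± 3.87 of Cox7a2l (SD, n = 4). On the scale from own-host Cre-control lesions (0%) to own-host deficient lesions (100%), Cre-control fragments in deficient hosts stood at 80.7% for Gm6969 and 77.8% for Cox7a2l. Deficient fragments in Cre-control hosts stood at 12.2% and 24.6%. The level of both genes was thus nearer to that of lesions of the host's genotype than to that of the fragment's genotype in both kinds of transfer.

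Gm7993 (chr5:95974240-95975623) and Gm9260 are about as close to Odc1, ornithine decarboxylase, with 95.3% and 95.1% identity over 1401 and 1398 bases. Gm7993 was 7.30, 4.85, 4.26 and 4.04 CPM in deficient hosts and 0.0494 to 0.113 in own hosts (6.04 ± 0.56, adjusted p = 3.69e-08), and Gm9260 rose too (3.40 ± 0.54, adjusted p = 0.000567). Odc1 (7.55 Mb from Id2) did not pass (−0.29 ± 0.13, adjusted p = 0.209). Rps7, a ribosomal protein gene 3.54 Mb from Id2, fell (−0.59 ± 0.16, adjusted p = 0.0274) while Rps7-ps3 rose (2.06 ± 0.23, adjusted p = 1.59e-06), and the call on Rps7 was lost without replicate 1 of deficient hosts (adjusted p = 0.0961) or replicate 3 of own hosts (0.0619). Rps7 passed in 3 of 8 fits that each left out 1 library (adjusted p up to 0.0961).

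**Figure D5:**
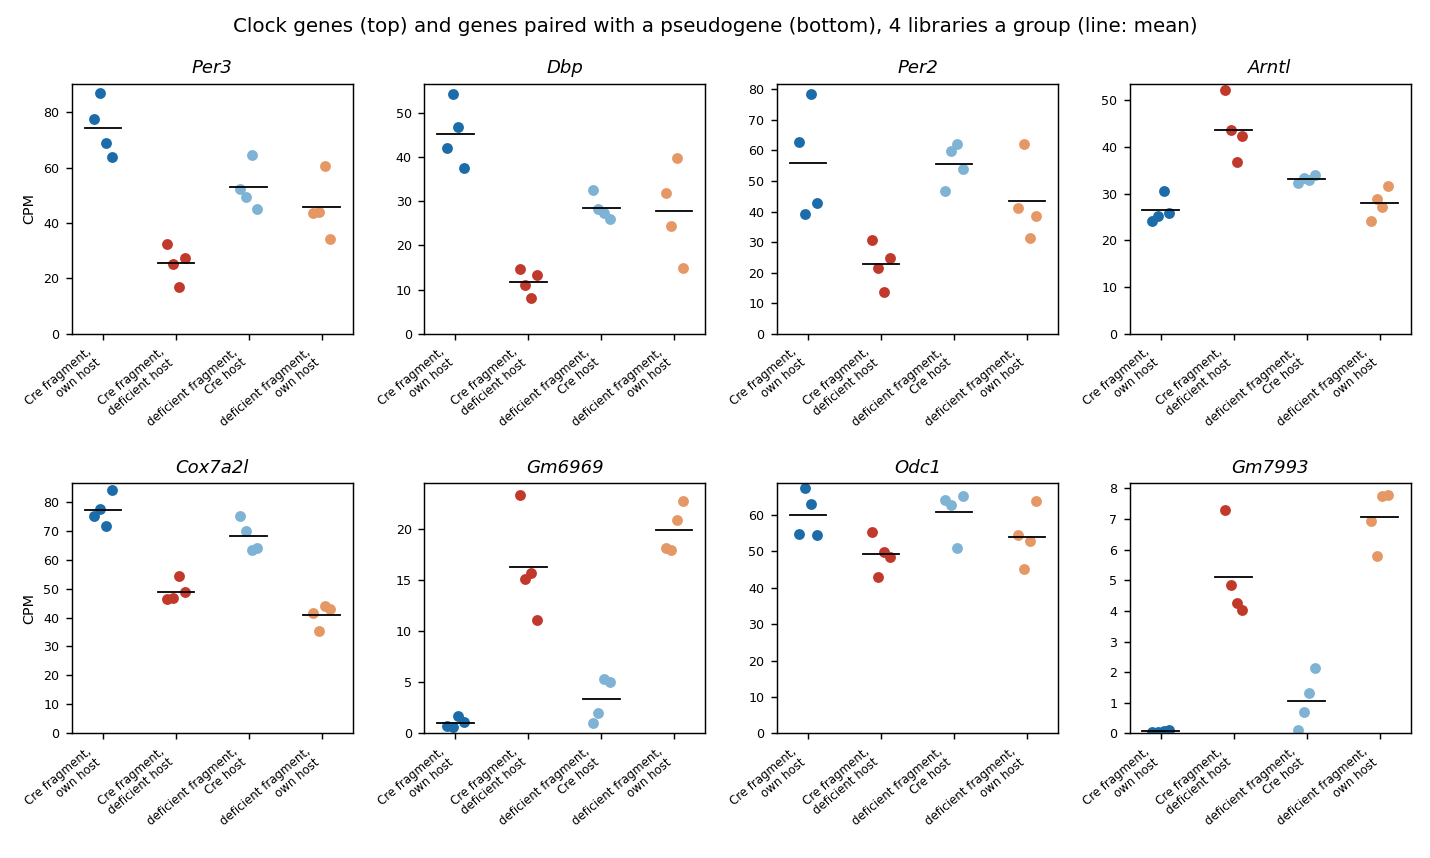
Levels (CPM, linear axes from 0) of 4 clock genes (top) and of 2 coding genes each beside a pseudogene that resembles it (bottom) in 4 groups of 4 libraries (points; line, mean). Per3 and Dbp are lowest in Cre-control fragments of deficient hosts (25.5 and 11.8 CPM), while Gm6969 and Gm7993 are high in both groups grown in deficient hosts.

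Within 10 Mb of Id2, 16 of 117 genes (13.7%) were called between hosts in Cre-control fragments, 14 of them higher, against 4.05% of all genes. Counts of whole lesions do not separate cells of the host from cells of the fragment, and the source of these calls was not tested. In this window 19 genes separated own-host deficient from own-host Cre-control lesions without overlap, by at least 1.5-fold and with at least 1 CPM. On the same percent scale Cre-control fragments in deficient hosts had a median of 54.1% over these genes (−14.0% to 110%), and deficient fragments in Cre-control hosts a median of 17.2% (−14.2% to 46.9%). At the ends were Rrm2, a cell division gene (110%), and Gm49329 (−14.0%), and the uterine estrogen target Greb1 stood at 11.7%.

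The difference between the 2 host comparisons passed for 88 genes (0.414%), 81 (0.381%) with a larger value in Cre-control fragments and 7 (0.0329%) with a smaller one. By its form it is also both transferred groups minus both groups that were not transferred. Dependence on the fragment genotype therefore cannot be told apart from transfer or from the run of library names. Per3 (−1.33 ± 0.27, adjusted p = 0.0290) and Dbp (−1.90 ± 0.39, adjusted p = 0.0309) were among the 7. In deficient fragments both had nearly the same level in either host, with Per3 at 45.6 ± 10.9 and 52.9 ± 8.27 CPM (SD, n = 4 each). Ffar4, a receptor for long-chain fatty acids, fell in deficient hosts in Cre-control fragments (−1.17 ± 0.25) and rose in deficient ones (1.37 ± 0.25, difference adjusted p = 0.000664). Cd8a (8.19 ± 1.44, adjusted p = 0.0113) and Ccl5, a T cell chemokine (7.62 ± 1.32, adjusted p = 0.0108), had larger values in Cre-control fragments. The 88 became 4 without replicate 3 of deficient hosts, 3 without replicate 3 of own hosts and 0 with only the 16 libraries of the 4 groups (edgeR, with 2755 at an unadjusted p under 0.05, and 342 adjusted calls with DESeq2 in all libraries).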

How the data were processed

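The authors deposited a table of raw counts for 21249 genes in 41 libraries. Trimmomatic, STAR, HTSeq, edgeR and limma, and the build GRCm38, are named in the submitters' processing notes; versions, strand setting and annotation are not given in the sources used here, so overlapping and antisense genes cannot be separated. Every gene had at least 411 counts in all, so low genes had been left out by an unstated rule. Some named-gene results are not reported here.

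Counts were fitted with edgeR 4.0.16 (R 4.3.3; TMM; robust quasi-likelihood test, two-sided). A single design with 11 group means covered all 41 libraries, which share the estimate of spread (biological coefficient of variation 0.465). Beyond the 4 groups compared, it held wild-type and Id2fl/fl lesions under IL-33 and deficient lesions under PBS or IL-33 with added PBS. The rest were wild-type or deficient lesions under IL-33 with transferred ILC2s. The filterByExpr rule removed no gene. Benjamini-Hochberg adjustment ran over all genes, with a threshold of 0.05. CPM uses TMM-scaled library totals, and standard errors follow from the fold change and its F statistic. Simulated counts drawn from the fit's own group means and spread were also put through it, and their outcome is not given here. They hold no library that stands apart, so they cannot check calls that depend on such libraries. Totals of 28.9 to 48.1 mega-counts set the counting error. All 24 pairs of libraries within the 4 groups differed beyond sampling noise, with a chi-square of at least 49.1 per degree of freedom.

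The libraries, gene lists and tests were chosen with earlier results of these data known. Named genes were Id2, Nmur1 and a fixed type 2 set, up to 4 called members of each list with the lowest p, the 10 largest rises and falls among called genes without overlap and with at least 1 CPM, 6 per direction called in both host comparisons, and 5 per direction of the difference; the text gives those that fall in its groups, and the others it names were added after their values were seen. Symbols were placed with GENCODE M21 (GRCm38; 20769 had a unique position), and pseudogenes were matched to coding transcripts by sequence alignment. Alternatives were upper-quartile scaling, DESeq2 1.42.0, library totals alone, other filters, fewer libraries, a replicate block and each library left out.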

Additional observations from a re-analysis of the deposited data

Results flagged for a closer look

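In each group of 4, a library was marked where its gap to the nearest other, divided by the group's range, exceeded Dixon's 95% critical value. Over 136 such groups 21 were marked, where chance at 1 in 20 gives 6.8. In deficient hosts the marked genes were Il1rl1 (0.848), Gata3 (0.931), Gm40847 (0.891), Cxcl9 (0.893), Cxcl10 (0.834) and Cd8a (0.891), and in own hosts Gm40847 (1.00), which had counts in 1 library.

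Replicate 3 was the marked library for eosinophil genes, above the others. The marked shares of counts in deficient hosts were those of eosinophil (0.946), T cell (0.991), B and plasma cell (0.983), NK and cytotoxic (0.974), antigen presentation (0.970), interferon (0.965), inflammatory cytokine (0.910), estrogen response (0.847) and blood genes (0.901). The marked library was replicate 2 for B and plasma cell genes, replicate 4 for blood genes and replicate 3 for the rest. In own hosts the marked shares were those of NK and cytotoxic (0.959), inflammatory cytokine (0.971), estrogen response (0.962), liver (0.999) and immediate early genes (0.887). In each of these the marked library was replicate 3, which is high in liver transcripts. It was lowest for NK and immediate early genes and highest for the others.

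The test of the difference between fragment genotypes passed in the main fit for Cd8a (log2 8.19), Apol7c (6.05), Ccl5 (7.62), Gm36931 (2.53), Per3 (−1.33), Dbp (−1.90), Gm609 (−9.82), Ffar4 (−2.54) and Gdf15 (−1.84). Gm21451 was marked too (8.10), but own-host deficient lesions had no count of it, so the size depends on the prior count of the fit and is no bound. Cd8a was highest in replicate 3 of Cre-control fragments in deficient hosts (68.8 CPM). Among deficient fragments in Cre-control hosts it was highest in replicate 1 (6.88 CPM), which also led its group in T cell genes (0.0124% of counts). The 88 calls became 4 without either of these libraries and 0 with only the 16 libraries of the 4 groups. In this test the fragment genotype cannot be told apart from transfer or run.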

How the results depend on the processing

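Calls depended on the spread borrowed from all 41 libraries and on single libraries. For Cre-control fragments (861 genes, 503 higher and 358 lower), DESeq2 called 1482 (892 and 590), scaling by library totals alone 476 (273 and 203), and leaving out liver-rich libraries 689, with 325 higher. Without both libraries numbered 3, 270 passed (106 and 164). With only the 8 libraries, 22 passed (7 and 15), 14 of the 96 called genes named here among them. A replicate block on those 8 gave 0 (edgeR, 2120 at an unadjusted p under 0.05). Same-numbered libraries had correlations of 0.15, −0.25, −0.03 and −0.31 in their deviations from group means, and other pairs ran from −0.36 to 0.43. These ranges overlap, so the check cannot show whether the numbers pair the samples. Leaving out each library gave 279 to 812 genes (160 to 569 higher, 1.2e+02 to 328 lower).

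For deficient fragments (964, 393 higher and 571 lower), DESeq2 gave 1690 (843 higher), only their 8 libraries about 1.5e+02 (53 and 95), no liver-rich libraries 373 lower, and leaving out each library 263 to 1051 (82 to 529 higher, 176 to 669 lower). For the difference (88, 81 and 7), DESeq2 gave 342 (254 and 88), only 16 libraries 0 (0 and 0), no liver-rich libraries 1 (0 and 1), neither library numbered 3 1 (0 and 1), and leaving out each library 3 to 264 (2 to 248 and 1 to 16).

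A further alternative left out each library with over 1% of counts in liver or in skeletal muscle genes. It kept 8 of 41 libraries, 1 in each of the 4 groups compared, and the spread came from 1 pair of libraries in another group (1 residual degree of freedom). Its 0 calls in all 3 comparisons (edgeR, 1394, 1406 and 764 at an unadjusted p under 0.05, against 1482, 1690 and 342 calls with DESeq2 on all libraries) say nothing about stability. Under it Col12a1 (−0.14), Kdr (−0.15), Gata3 (0.74), Gm21451 (0.22) and Il33 (−0.82) changed sign. Il33 also did so without liver-rich libraries (−0.0213), without replicate 3 of own hosts (−0.0215) and without replicate 1 of deficient hosts (−0.16). Id2 did so without replicate 4 of own hosts (−0.11) and without replicate 2 (−0.06) or 3 (−0.07) of deficient hosts. Over all libraries left out in turn, Id2 ran from −0.11 to 0.24 and Il33 from −0.16 to 0.32. The alternatives with liver and muscle, without both libraries numbered 3, with library totals alone and the upper-quartile fits beyond the first comparison were chosen after seeing the data. Of the 96, DESeq2 gave no adjusted p for 6 and called the other 90. The low levels of Il5, Il13 and Nmur1 limit their precision.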

Other observations

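Mitochondrial transcripts and tissue of the peritoneal wall also varied between the libraries. None of the 13 messages of mitochondrial DNA passed, with a median log2 fold change of 0.89, and all 13 values were above 0. None of 14 skeletal muscle genes passed (median 1.28), and their share of counts was 0.911% to 5.65% in deficient hosts and 0.00592% to 2.73% in own hosts, which overlap. Of 12 adipocyte genes, 10 mesothelial genes and 10 smooth muscle genes none passed either. Epithelial genes of the endometrium took 0.00317% to 0.282% in deficient hosts and 0.0456% to 0.140% in own hosts, and of the 16 measured Msx1, a homeobox gene, fell (−2.27 ± 0.62, adjusted p = 0.0326). The adjusted p of Msx1 was 0.0642 and 0.101 without replicate 1 or 3 of deficient hosts and 0.0794 without replicate 3 of own hosts, so its call was lost in these fits. The other fits that left out 1 library are not given for Msx1.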
